A study of Mus musculus with 6 samples.

Results

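The miRNAs described here are the 5p arms of miR-6896 to miR-7093, the strand cut from the 5′ side of each hairpin. They are taken by name alone, as every probe for a mouse miRNA whose number falls in this range and whose name ends in -5p, and no measured value enters the rule. The rule found 200 of the 1963 mature mouse miRNAs on the array, with both lettered forms of miR-6973 and of miR-7036 among them. Lung total RNA came from 3 untreated WT mice, which received saline into the trachea, and from 3 WT-BLM mice. These were given bleomycin (BLM), a cytotoxic drug used to induce lung fibrosis, at 1.5 U/kg by the same route. All 6 were C57Bl6 mice with no altered gene, 8 to 10 weeks old by the study's methods, and lungs were taken at day 21. Each mouse was hybridized to an array of its own with 1 dye, and the IKBM mice of the study were not analysed here. Whole lung was used, so that a change in the share of a cell type and a change in RNA per cell cannot be told apart.

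MiRNAs are numbered in the order in which they were submitted to miRBase, so that this range holds miRNAs named late, when deep sequencing of small RNA had become the usual source. Many late miRNAs are mirtrons or mirtron-like. A mirtron is a hairpin formed by a short intron, and splicing takes the place of the nuclear cut that frees most hairpins. Its 5p arm lies at the start of the intron, which normally begins with GU. Its 3p arm lies at the end, which normally holds a run of pyrimidines followed by AG. As in other miRNAs, bases 2 to 8 of the mature strand, the seed, pair with target mRNAs.

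The arms of these hairpins carried some of those letters. Of the 200 3p arms in the same number range, 158 (79%) ended in AG, compared with 63 of 623 (10.1%) other 3p arms on the array, and on average 71.7% of their bases were pyrimidines. The 5p arms were the opposite in composition, with 44.2% ± 9.15 of their bases G (SD, n = 200), against 15.7% ± 7.45 in the 3p arms (n = 200) and 27.1% ± 12.2 in the miRNAs outside the range (n = 1563). Their longest run of G averaged 3.255 bases, compared with 2.0723 outside the range. However, 18 of the 200 5p arms (9%) began with GU, beside 3.26% of the miRNAs outside the range, and 2 (1%) began with GUGAGU or GUAAGU, the letters of a strong splice donor. The first base was U in 94 (47%). RefSeq listed 176 of the 200 with the same sequence as the array, and all 176 lay within the span of a protein-coding gene, against 504 of 871 (57.9%) other miRNA genes. The strand was the host gene's for 155 of them and was not given for the other 21. The tables used hold no exons, so that an intron could not be told from an exon and no member was classed as a mirtron.

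The sequences of 8 members are shown because these miRNAs were detected on at least 3 of the 6 arrays and carry the comparison of WT-BLM with untreated WT mice. They are written 5′ to 3′ with the seed in capitals and were read from RefSeq (GRCm38.p6). miR-6981-5p also belongs to this set, but it had no match among the RefSeq entries used and is given by its values.
miR-7033-5p: uCUCCAGGagucugaggggcagg
miR-7082-5p: uACGGGCAggaggaggggagg
miR-7045-5p: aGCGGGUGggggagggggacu
miR-6937-5p: uAGCUGUAagggcugggucugugu
miR-7044-5p: gUGUGGUGgugguggcggc
miR-7011-5p: aGGAGGAUgggagagggaggugu
miR-7088-5p: gCAAGUGGuggugaggaggggaaac
miR-7075-5p: cGGGGAGGaggacaugguuuu
The 3p arms of 3 of them are shown for contrast, with their last bases in capitals.
miR-7045-3p: ucuccccccucccccgcacAG
miR-7011-3p: ucugcuucccuccuccucuAG
miR-7033-3p: ugccuccauucucuugggcAG
Most of these 5p arms read as runs of G broken by A or U, miR-7033-5p and miR-6937-5p less so, and these 3p arms as C and U with a final AG. Of the 8 3p arms that belong to the 5p arms shown, 6 end in AG, while miR-7082-3p and miR-7088-3p end in CC, and the share of pyrimidines runs from 57.1% in miR-7044-3p to 85.7% in miR-7011-3p.

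Each of these hairpins lies inside a gene of its own. miR-7033-5p is at chr5:135383783-135383805 on the minus strand, within Pom121, a protein of the nuclear pore. miR-7082-5p is at chr9:21075563-21075583 on the minus strand, within Raver1, an RNA-binding protein. miR-7045-5p is at chr6:125097029-125097049 on the plus strand, within Chd4, a chromatin remodeler. miR-7044-5p lies on the same chromosome, at chr6:118085197-118085215 on the plus strand, within Rasgef1a, an exchange factor for RAS proteins. miR-7011-5p is at chr3:88440924-88440946 on the minus strand, within Sema4a, a semaphorin. miR-7088-5p is at chr9:108081498-108081522 on the plus strand, within Mst1, which encodes macrophage stimulating protein. miR-7075-5p is at chr8:107096081-107096101 on the minus strand, within Terf2, a protein that binds telomeres. These 7 share the strand of the host gene. miR-6937-5p is at chr12:28679325-28679348 on the plus strand, within Adi1, an enzyme of methionine salvage, whose strand the tables do not give. No mRNA was measured on these arrays, so that the host genes have no values here.

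The seeds were mostly unlike each other. The 200 members carried 177 seeds, of which 18 were shared by 41 members. None of the 9 members detected on at least 3 arrays shared a seed with another of them. miR-7075-5p had the seed GGGGAGG in common with miR-7030-5p and miR-7076-5p, and both of those were detected on no array. The seed carried by most members, GUGGGAG, belonged to 4, of which 0 were detected.

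A miRNA was taken as detected on an array when the mean of its 2 spots stood more than 3 SD of the 800 empty spots above their median. Of the 200 members, 17, 7 and 4 were detected in untreated WT mice 1, 2 and 3. In WT-BLM mice 1, 2 and 3 the numbers were 4, 17 and 17. These are 8.5%, 3.5% and 2% of the members in the untreated mice, and 2%, 8.5% and 8.5% after BLM. The lowest shares fell on the arrays of untreated WT mouse 3 and WT-BLM mouse 1, where the empty spots were most uneven. Their SD was 59.3 and 45.2 on these arrays, against 8.01 to 18.1 on the other 4. The limit above the empty median was thus 178 and 136 intensity units there and 24.0 to 54.4 elsewhere. Among the lung markers checked, miR-126a-3p of endothelium, the miR-200 family and miR-141-3p of epithelium and miR-143-3p and miR-145a-5p of smooth muscle were detected on all 6 arrays. Others passed on fewer, with miR-126a-5p of endothelium on 3, miR-449a-5p of ciliated cells on 4 and miR-144-3p of red cells on 5. The liver miRNA miR-122-5p and the brain miRNA miR-124-3p passed on 1 array each, and the brain miRNA miR-9-5p on 0.

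The members were detected less often than the other miRNAs of the array. Their detected share averaged 5.5% ± 3.33 (SD, n = 6 arrays), compared with 14.7% ± 5.10 of the 1763 other miRNAs, and it was lower on 6 of 6 arrays by 5.26 to 11.4 percentage points. The mean difference was −9.17 percentage points (SD 2.36), with an exact two-sided sign-flip permutation p of 0.03125, the smallest that 6 arrays allow, and an adjusted p of 0.0469 over the 3 comparisons of shares and counts. Against the other miRNAs numbered above 3000, a comparison added after seeing the data, the difference was −0.17 percentage points with an exact permutation p of 0.844. Detection fell with the number. At least 1 array detected 70.7% of miRNAs numbered up to 100, 32.9% of those above 100 and up to 1000, 22.1% up to 3000, 16.5% from there to the start of the range, 13.3% of both arms within the range and 11.5% beyond it.

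Within the hairpins, the 5p arm was detected more often than the 3p arm. The 3p arms of the same range were detected in 6, 4 and 0 cases on the untreated WT arrays and in 1, 3 and 9 on the WT-BLM arrays, a mean share of 1.92% ± 1.66 (SD, n = 6). The share of the 5p arms was higher on 6 of 6 arrays, by 3.58 percentage points on average (SD 2.31, range 1.5 to 7; exact two-sided sign-flip permutation p = 0.03125, adjusted p = 0.0469). With the limit set from a robust SD, which a few bright empty spots move little, the mean difference was 6.58 and the exact permutation p 0.0625. Of the 200 hairpins, 36 had a 5p arm and 17 a 3p arm detected on at least 1 array, and 4 had both. None of the 9 members detected on at least 3 arrays had a 3p arm detected on any. The 3p arms that passed on at least 3 arrays were miR-7058-3p and miR-6929-3p, on 4 arrays each, and their 5p arms were never detected.

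**Figure D1:**
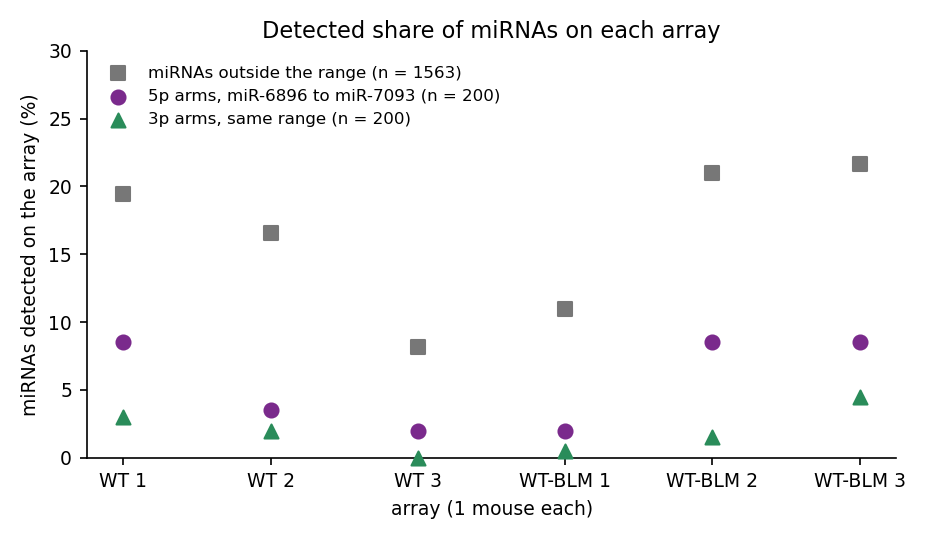
Share of miRNAs detected on each of the 6 arrays (y axis, percent; x axis, the mouse) for the 200 5p arms (circles), the 200 3p arms of the same range (triangles) and the 1563 miRNAs outside the range (squares). On every array the 5p arms sit between the 2 other sets, and all 3 sets are lowest on the arrays of untreated WT mouse 3 and WT-BLM mouse 1.

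Most members were not detected in lung. Of the 200, 164 (82%) were detected on none of the 6 arrays, 22 were detected on 1 array, 5 on 2, 5 on 3, 2 on 4, 1 on 5 and 1 on all 6. This leaves 36 (18%) detected at least once and 9 (4.5%) on at least 3 arrays, compared with 448 (28.7%) and 264 (16.9%) of the 1563 miRNAs outside the range. The count depends on the limit. Under the robust SD, 116 members were detected at least once and 39 on at least 3 arrays. When both spots of a probe had to pass, the numbers were 16 and 5. Over the 200 members, the intensities of untreated WT mouse 3 had a correlation across probes of 0.19 to 0.36 with the other arrays, as a description, while the 4 arrays with even empty spots had 0.75 to 0.82 among themselves. For all other miRNAs, every pair of arrays lay between 0.92 and 0.98.

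The spots behind a detection differed between members seen once and members seen repeatedly. The plot of spot pairs sets the dimmer spot of each detection against the unevenness of the brighter one. Of the 66 detections of members, 35 (53.0%) had both spots above the limit, compared with 86.3% of 1552 detections of the other miRNAs. For the 22 members detected on 1 array, 3 had both spots above it and 19 rested on 1 spot. Examples are miR-7090-5p in untreated WT mouse 3, whose spots lay −37.6 and 653 intensity units from the empty median, and miR-6918-5p in WT-BLM mouse 3, with 740 and 0.994. The brightness within these bright spots varied with an SD of 146% and 143% of their intensity, whereas the median over all 2400 member spots was 8.54%. A spread above 50%, a value chosen after seeing the data, was found in 16 of the 22 bright spots of members seen once. It was found in 2 of the 10 of members seen on 2 arrays, both of miR-7072-5p. For members seen on at least 3 arrays it was 2 of the 34, and over all member spots 1.88%. The 2 among the 34 were those of miR-6937-5p on the array of WT-BLM mouse 1 and miR-7011-5p in untreated WT mouse 1. An example without such a spread is miR-6931-5p in WT-BLM mouse 2, with spots at 117 and 129 with a spread of 6.55% in the brighter. What an uneven spot holds was not tested. The 22 members seen once were divided evenly, 11 on untreated WT and 11 on WT-BLM arrays.

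**Figure D2:**
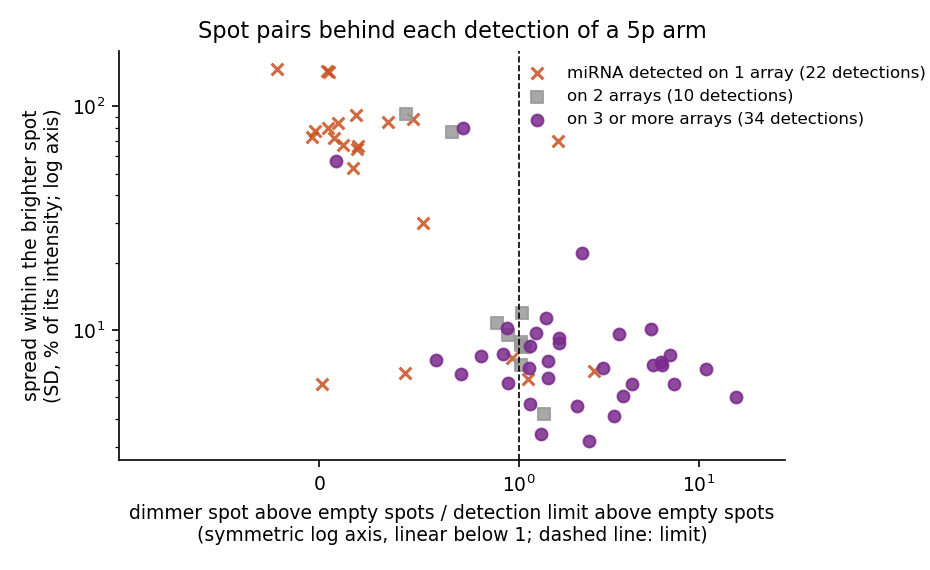
Each point is 1 detection of a 5p arm on 1 array, with its dimmer spot above the empty median as a multiple of the detection limit (x axis, symmetric log; dashed line at the limit) and the SD of brightness within its brighter spot in percent of that spot's intensity (y axis, log). Detections of members seen on 1 array (crosses) lie mostly at the upper left, where the dimmer spot is near the empty spots and the brighter spot is uneven, and 26 of the 34 detections of members seen on at least 3 arrays (circles) lie right of the line.

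Members detected repeatedly had a higher mean share of G than the rest. The mean share of G was 54.2% in the 9 members detected on at least 3 arrays, 45.8% in the 22 detected once and 43.3% in the 164 never detected. By bins of G, 0 of 11 members under 30%, 9 of 51 (17.6%) from 30 to under 40%, 10 of 73 (13.7%) from 40 to under 50% and 17 of 65 (26.2%) at 50% or more were detected at least once, and 6 of the 9 were in the last bin. Outside the range, the shares in the same bins were 30.8%, 25.96%, 18.9% and 35.4%. Across the 200 members the correlation of G share with the mean log2 intensity was 0.27 (Pearson) and 0.30 (Spearman), as a description with the array and the base composition in common. Across the 3p arms it was −0.19 (Pearson) and across the miRNAs outside the range −0.03. The letters GGAGG, searched on the given strand after the sequences were seen, stood in 45 members (22.5%), in 5.30% of all 1963 miRNAs and in 5 of the 9 members detected on at least 3 arrays. Those 5 were miR-7082-5p, miR-7045-5p, miR-7011-5p, miR-7088-5p and miR-7075-5p, and the motif can be read in their sequences above. It also stood in 34 of the 164 members never detected (20.7%). A match is a description of the letters, and the part of base composition in the signal was not tested.

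**Figure D3:**
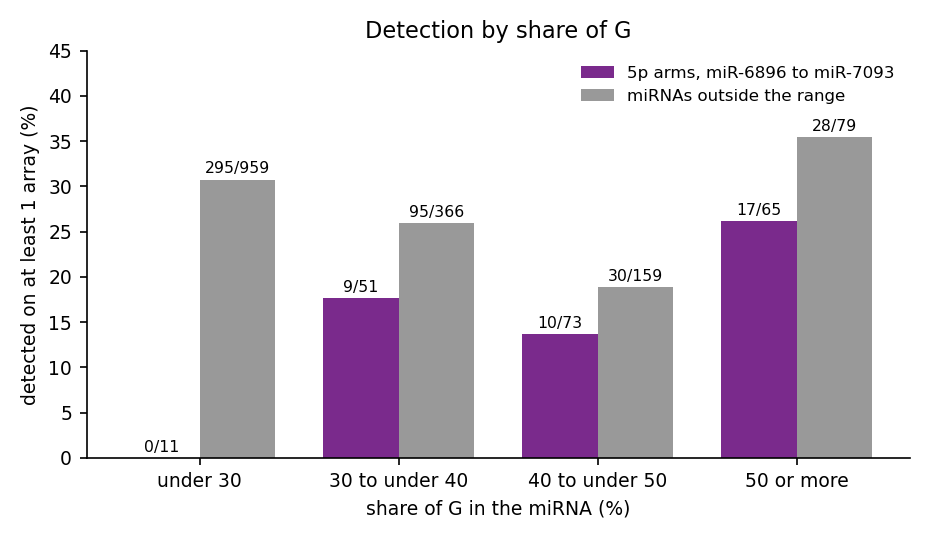
Share of miRNAs detected on at least 1 array (y axis, percent) by share of G in the sequence (x axis, percent), for the 200 5p arms and the 1563 miRNAs outside the range; the fraction over each bar gives detected over all. The bars of the 5p arms are below those outside the range in all 4 bins, and both sets are highest at 50% G or more.

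The number of members detected overlapped between the groups. It was 12.7 ± 7.51 per array in WT-BLM mice and 9.33 ± 6.81 in untreated WT mice (SD, n = 3 each), a difference of 3.33 with an exact two-sided permutation p of 1, where 3 against 3 mice cannot go below 0.10. The lowest counts were those of the arrays with uneven empty spots, 1 in each group. With the robust limit, 56, 46 and 5 members passed in the untreated mice and 58, 59 and 52 after BLM, so that untreated WT mouse 3 alone stood apart. On its array 70% of the members lay below the empty median, against 0 to 8% on the other 5. The same held for 59.6% of all other miRNAs on that array.

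None of the 9 tested members passed the test between WT-BLM and untreated WT mice after adjustment. The test was limma on quantile normalized log2 intensities, over the 275 miRNAs detected on at least 3 arrays. It called 0 of the 275 (0%) at an adjusted p under 0.05, and 5 (1.82%) had an unadjusted p under 0.05, of which 1 was a member, miR-6937-5p. This member passed the filter only through the WT-BLM mice, so that nothing is read from the count. All 9 adjusted p-values were 1. The median log2 fold change was 0.087 over the members and 0.044 over all tested. The log2 fold change was above 0 for 7 of the 9, miR-6937-5p among them, compared with 155 of the 275 (56.4%). Without untreated WT mouse 3 it was above 0 for 4 of the 9, with a median of −0.18 beside −0.0073 over all tested. With array weights it was above 0 for 4, with a median of −0.075 beside 0.012. With scaling to the 75th percentile of detected miRNAs it was above 0 for 1, but there the median of all tested was −0.22 and that of the members, −0.14, stayed above it. The groups did not overlap for 1 of the 9, compared with 13 of the 275 (4.73%), and this was again miR-6937-5p, detected in all WT-BLM and no untreated mice. The standard errors of the members ran from 0.25 to 0.59 on the log2 scale. In 8 of the 9, all but miR-7033-5p, the lowest of the 6 values was that of untreated WT mouse 3, as it was for 42.5% of the 275.

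miR-7033-5p was the only member detected on all 6 arrays. In mice 1, 2 and 3 of each group, the order used from here on, log2 intensities were 9.11, 7.87 and 8.82 in the untreated mice and 8.24, 9.30 and 8.43 after BLM. High and low values occurred in both groups, and the ranges overlapped in part. The log2 fold change was 0.06 ± 0.41 (SE, limma, adjusted p = 1). Both spots passed on every array, although they lay at 500 and 102 above the empty median in WT-BLM mouse 3. Its direction turned without untreated WT mouse 2 (−0.30) or without WT-BLM mouse 2 (−0.26).

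miR-7082-5p and miR-6981-5p varied most among the untreated mice. For miR-7082-5p, the log2 intensity was 8.43, 8.65 and 6.50 in the untreated mice and 7.67, 7.75 and 7.98 after BLM. For miR-6981-5p it was 8.55, 8.41 and 6.23 in the untreated mice and 7.40, 7.56 and 7.86 after BLM. In both, untreated WT mice 1 and 2 were above all WT-BLM mice and untreated WT mouse 3 was below every one. The fitted log2 fold changes came to −0.06 ± 0.54 for miR-7082-5p and −0.12 ± 0.59 for miR-6981-5p (SE, limma, adjusted p = 1). In untreated WT mouse 3, miR-6981-5p lay 0.144 intensity units above the empty median and miR-7082-5p 14.3, whereas in untreated WT mice 1 and 2 they lay 276 to 420 above it. The authors' own normalized intensities had the same shape, with 248, 262 and 13 for miR-6981-5p in the untreated mice and 109, 101 and 135 after BLM. For miR-7082-5p the authors' values were 223, 303 and 27 in the untreated mice and 131, 124 and 143 after BLM.

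Without untreated WT mouse 3, a fit of 2 untreated WT against 3 WT-BLM mice, both miRNAs were lower in WT-BLM mice. The fitted log2 fold change was −0.91 ± 0.24 for miR-6981-5p (limma, unadjusted p = 0.0058, adjusted p = 0.386) and −0.77 ± 0.23 for miR-7082-5p (unadjusted p = 0.011, adjusted p = 0.386). The untreated values then spanned 8.47 to 8.62 and the WT-BLM values 7.42 to 7.89 for miR-6981-5p, and 8.50 to 8.72 and 7.70 to 8.03 for miR-7082-5p. The groups did not overlap, as for 59 of the 275 (21.5%) in that fit. By unadjusted p they were the 3rd and 6th of 275. In that fit 3 members had an unadjusted p under 0.05, both of these and miR-6937-5p, beside 20 of the 275 (7.27%). miR-6937-5p passed the filter only through the WT-BLM mice, so that nothing is read from this count either. Without untreated WT mouse 1 or 2 the sign was the opposite, at 0.21 and 0.32 for miR-7082-5p and 0.27 and 0.21 for miR-6981-5p. The adjusted p did not pass in any fit. Markers of heart and skeletal muscle moved with them. miR-1a-3p had log2 intensities of 11.3, 12.96 and 9.63 in the untreated mice and 10.5, 9.84 and 9.84 after BLM, and miR-133a-3p 9.29, 10.8 and 7.54 in the untreated mice and 8.98, 8.36 and 8.40 after BLM. Both had untreated WT mice 1 and 2 above all WT-BLM mice and mouse 3 below them, and the third marker of that list, miR-208b-3p, did not. The summed intensity of the 3 markers ran from 1058 to 9835 in the untreated mice and from 1362 to 2010 after BLM. Of the 4 leukocyte miRNAs checked, miR-142a-3p and miR-142a-5p had this order too, but narrowly. For miR-142a-3p, untreated WT mouse 1 had 10.2925 and WT-BLM mouse 1 had 10.2888. For miR-142a-5p, untreated WT mouse 2 had 10.28 and WT-BLM mouse 1 had 10.23. The other leukocyte miRNAs, miR-223-3p and miR-150-5p, were highest in untreated WT mouse 3. The order was found in 28 of the 275 tested miRNAs (10.2%). The part of muscle or leukocyte RNA in the values of miR-7082-5p and miR-6981-5p was not tested. Whether untreated WT mouse 3 differed in RNA or in hybridization was not tested.

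miR-6937-5p was the only member detected in all mice of 1 group and none of the other. It entered the test only through the WT-BLM mice, where it is high, so that its values are given as a description. Log2 intensities were 6.42, 6.55 and 6.25 in the untreated mice and 7.41, 7.27 and 6.74 after BLM. Every WT-BLM mouse was above every untreated mouse. The measured means differed by 0.73 on the log2 scale. No untreated mouse passed the limit, and the WT-BLM mean rests in part on 1 uneven spot of mouse 1. This difference is therefore not read as a fold change. In WT-BLM mouse 1 its spots lay 321 and 11.6 above the empty median, in mouse 2 at 115 and 110, and in mouse 3 at 53.9 and 14.1, so that both passed in mouse 2 alone. The authors' values were 19, 25 and 13 in the untreated mice and 9, 76 and 41 after BLM, and there the groups overlapped, with WT-BLM mouse 1 the lowest of all. With spot pairs that differ by more than 1 on the log2 scale left out, the difference was 0.60.

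**Figure D4:**
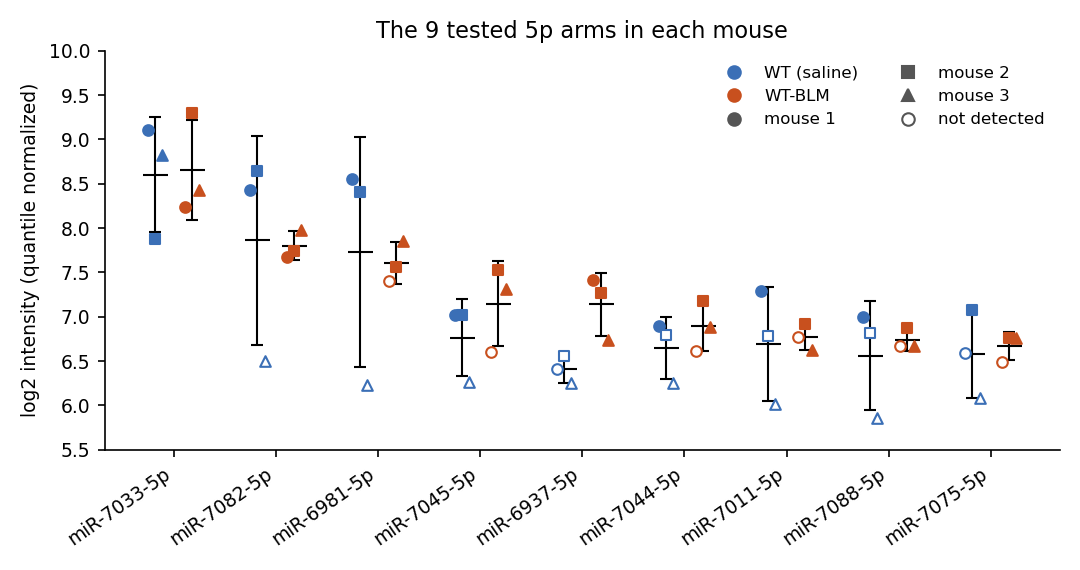
Log2 intensity (y axis, quantile normalized) of the 9 members detected on at least 3 arrays (x axis) in each mouse, with the mean and SD of each group of 3 as bars; open symbols are mice in which the miRNA was not detected. The triangle of untreated WT mouse 3 is the lowest of the 6 for every member but miR-7033-5p, and only miR-6937-5p has groups that do not overlap.

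The other 5 tested members were each below the limit on 2 or 3 arrays. For miR-7045-5p the log2 intensity was 7.01, 7.02 and 6.26 in the untreated mice and 6.60, 7.52 and 7.32 after BLM, with a log2 fold change of 0.38 ± 0.34. For miR-7044-5p it was 6.89, 6.80 and 6.25 in the untreated mice and 6.61, 7.18 and 6.88 after BLM, with 0.24 ± 0.27. In both, WT-BLM mouse 2 was the highest and untreated WT mouse 3 the lowest, and the groups overlapped. For miR-7011-5p the log2 intensity was 7.29, 6.78 and 6.01 in the untreated mice and 6.77, 6.92 and 6.62 after BLM, a log2 fold change of 0.08 ± 0.34. Its highest value, in untreated WT mouse 1, came from spots at 30.9 and 221 above the empty median, and the authors' value for that mouse was 28, against 55 in untreated WT mouse 2. For miR-7088-5p the log2 intensity was 6.996, 6.82 and 5.86 in the untreated mice and 6.67, 6.87 and 6.67 after BLM, with a log2 fold change of 0.18 ± 0.33. For miR-7075-5p it was 6.59, 7.08 and 6.08 in the untreated mice and 6.49, 6.76 and 6.76 after BLM, with 0.09 ± 0.29. The WT-BLM values of these last 3 fell within the range of the untreated values. Without untreated WT mouse 3, their log2 fold changes turned to −0.28 for miR-7011-5p, −0.19 for miR-7088-5p and −0.18 for miR-7075-5p.

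**Figure D5:**
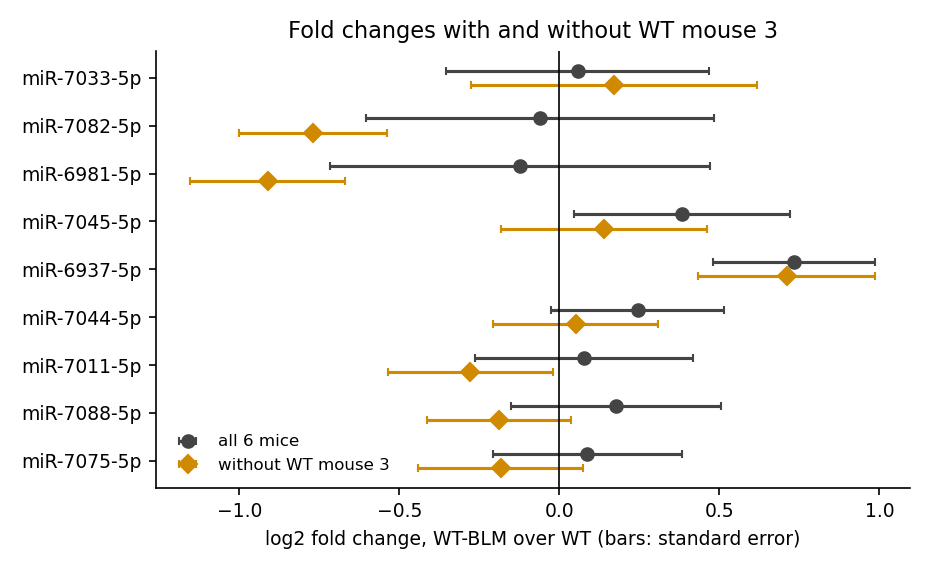
Log2 fold change of WT-BLM over untreated WT mice (x axis, with limma standard errors as bars) of the 9 tested members (y axis), with all 6 mice (circles) and without untreated WT mouse 3 (diamonds). The values of miR-7082-5p and miR-6981-5p move from near 0 to −0.77 and −0.91. miR-6937-5p is plotted as a description only, because it entered the test only through the WT-BLM mice, where it is high.

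A further 5 members were detected on 2 arrays, both in the same group, and were not tested. Of the 47 other miRNAs detected on 2 arrays, 30 (63.8%) had both in the same group. To set them beside the tested members, the sequences of 3 are shown, read from RefSeq (GRCm38.p6) with the seed in capitals.
miR-6925-5p: uGAGGAAGagaaggcuuggacu
miR-7072-5p: gAGGGGAGacaagaggcaaggc
miR-6942-5p: uAGGAGGAggggaacauuugc
miR-6925-5p lies at chr11:70705995-70706016 on the plus strand, within Kif1c, a kinesin motor. It was 53.2, 61.5 and 17.5 intensity units above the empty median in the untreated mice and 24.4, 37.2 and 13.9 after BLM. Untreated WT mice 1 and 2 were above all the others, with both spots past the limit. Untreated WT mouse 3 was below WT-BLM mice 1 and 2, so that the groups overlapped and no fold is given. The authors' values were 42, 55 and 25 in the untreated mice and 22, 17 and 16 after BLM. There the groups did not overlap. miR-7072-5p lies at chr8:94505051-94505072 on the plus strand, within Nlrc5, a regulator of MHC class I genes. It passed in untreated WT mice 1 and 2, each through 1 spot, at 190 beside 18.8 and at 105 beside 36.1. Both bright spots were uneven, with an SD of 92.4% and 76.9% of their intensity. The authors' values in these mice were 15 and 43.

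The remaining 3, miR-7047-5p, miR-6942-5p and miR-6971-5p, passed in WT-BLM mice 2 and 3. miR-7047-5p was 31.4, 22.3 and −6.47 intensity units above the empty median in the untreated mice and 35.97, 74.6 and 33.2 after BLM. The lowest WT-BLM value, 33.2, lay close to the highest untreated value, 31.4. These units are not normalized between arrays, so that nothing is read from the order. miR-6942-5p lies at chr13:21396613-21396633 on the minus strand, within Zkscan3, a zinc finger protein. It was 28.4, 31.5 and −6.16 above the empty median in the untreated mice and 25.8, 53.6 and 31.3 after BLM, and the groups overlapped. miR-6971-5p was 31.1, 43.6 and −16.7 in the untreated mice and 39.9, 46.8 and 26.6 after BLM, again with overlap. No fold is given for these 3 or for miR-7072-5p, because the mean of the brighter group was below the detection floor of the dimmer.

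Dropping the filter brought in no further call. When all 1963 miRNAs were fitted, 9 of the 200 members (4.5%) had an unadjusted p under 0.05, beside 46 of the 1963 (2.34%), and the lowest adjusted p of a member was 0.97 (limma). Of the 9, 6 were higher in WT-BLM mice and 4 had been detected on no array. Over all 200 members, 106 (53%) had a log2 fold change above 0, compared with 49.6% of the 1963.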

How the data were processed

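Lung miRNA was measured on 6 arrays, from 3 untreated WT and 3 WT-BLM mice, grouped by the sample labels. The authors deposited a median intensity for each of the 5022 spots per array, before background subtraction or normalization, and as a further (other) column the SD of brightness within the spot. They also deposited 1 normalized intensity per probe, a linear value whose method is not given in the sources used here; over 116 miRNAs detected on all arrays, its log2(value + 1) had a correlation across probes of 0.974 to 0.996 with the values computed here, and over the 200 members one of 0.610 to 0.805.

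In R 4.3.3 with limma 3.58.1, all spots were background-corrected by normexp (offset 50), control spots were left out, and log2 values of 3926 miRNA spots were quantile normalized and averaged per probe. The offset shrinks the fold changes of dim probes. Differences are WT-BLM minus untreated WT on the log2(intensity) scale. Probes detected on at least 3 of 6 arrays went into lmFit and eBayes, and p-values were adjusted over these 275 by Benjamini-Hochberg. Signals of different probes were not ranked as abundance, and 3 mice per group limit the precision.

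The number range and the lists were chosen with earlier results of these data known, although the rule for members uses names only. Members named are the 10 tested with the highest mean intensity (9 were tested), the 5 with the smallest unadjusted p, those detected on all arrays of 1 group and none of the other, tested members that share a seed, and miR-6937-5p and miR-6925-5p by name; the members detected on 2 arrays and the examples of spot pairs were chosen after their values were seen. Sequences and coordinates came from a RefSeq table (GRCm38.p6) by exact match. The steps were tested on simulated data. The alternatives were other limits, normalizations, background corrections, filters, spot summaries, array weights, tests and the authors' values, with each mouse left out in turn. Leaving out both arrays with uneven empty spots, and the comparisons with other 5p arms and with miRNAs numbered above 3000, were added after seeing the data.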

Additional observations from a re-analysis of the deposited data

How the results depend on the processing

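Groups of 3 mice, and for members other than miR-7033-5p signals near the empty spots on some arrays, limit these comparisons; 0 were called at an adjusted p under 0.05 in any alternative. The detected share stayed below that of the other miRNAs under the 4 other limits and against other 5p arms (−12.8 percentage points), but was −0.17 (exact permutation p = 0.844) against those numbered above 3000. The gap to the 3p arms was 6.58 with the robust SD (exact permutation p = 0.0625). Leaving out 1 mouse gave −9.95 to −8.72 against the other miRNAs and 2.9 to 4 against the 3p arms, each with an exact permutation p of 0.0625, the smallest 5 arrays allow. Without both arrays with uneven empty spots the values were −10.5 and 4.5 (exact permutation p = 0.125, the smallest for 4).

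The number of members tested was 39 with the robust SD, 15 at 2 SD, 5 with both spots, 4 at the 99th percentile, and 4 to 9 with 1 mouse left out (4 without WT-BLM mouse 2 or 3). Members with an unadjusted p under 0.05 (1 in the text) numbered 0 under both 75th percentile scalings, no normalization, the authors' values with an offset of 50 or 1, miRNAs detected on all 6 arrays, and discordant spots left out, 9 without a filter, 2 without both uneven arrays, and 0 to 3 with 1 mouse left out (0 without untreated WT mouse 1, WT-BLM mouse 1 or 2; 3 without untreated WT mouse 3). The median log2 fold change of the tested members was 0.72 with the authors' values and an offset of 1, and −0.18 to 0.36 with 1 mouse left out.

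Of 199 log2 fold changes of single members, 26 turned. Scaling to the 75th percentile of detected miRNAs moved the median of all tested miRNAs from 0.044 to −0.22, left 1 of 9 members above 0, and gave −0.12 (miR-7033-5p), −0.015 (miR-7045-5p), −0.14 (miR-7044-5p), −0.26 (miR-7011-5p), −0.10 (miR-7088-5p) and −0.29 (miR-7075-5p), of which miR-7033-5p, miR-7045-5p, miR-7044-5p and miR-7088-5p stayed above that median. miR-7075-5p was −0.0041 with cyclic loess and −0.011 without normalization. miR-7082-5p was 0.031 with an offset of 16 and 0.11 with the authors' values and an offset of 1, where miR-6981-5p was 0.24. With array weights (0.237 for untreated WT mouse 3), miR-7011-5p, miR-7088-5p and miR-7075-5p were −0.15, −0.075 and −0.13, and without both uneven arrays −0.29, −0.15 and −0.090. With 1 mouse left out, the ranges were −0.30 to 0.32 for miR-7033-5p, −0.77 to 0.32 for miR-7082-5p, −0.91 to 0.27 for miR-6981-5p, −0.28 to 0.37 for miR-7011-5p, −0.19 to 0.40 for miR-7088-5p and −0.18 to 0.34 for miR-7075-5p. The causes were not tested. With the mouse number as a replicate block, 0 members were called, 1 had an unadjusted p under 0.05 and the median was 0.087; same-numbered mice deviated together with correlations of 0.16, 0.03 and 0.07, so the numbers were not taken as pairs. No slide or scan was given, and that block was not run.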
